A study of Mus musculus with 8 samples.

Results

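The genes described here are the sugar and monocarboxylate transporters of the mouse gut epithelium, taken as every protein-coding gene of the solute carrier families Slc2, Slc5 and Slc16 that the deposited count tables list. The rule used gene names alone and found 39 genes, 12 of Slc2, 13 of Slc5 and 14 of Slc16, among 40178 genes listed in either table. Of these, 38 were in the colon table of 28349 genes and 39 in the ileum table of 38649 genes. Slc5a12 was listed for the ileum and not for the colon, and was counted as 0 there.

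RNAseq was done on intestinal epithelial cells (IECs) that EDTA washes release from the gut wall, from mice aged 8 weeks by the labels. WT mice were DDX5(+/+), Vil1Cre(+) and DDX5KO mice, the DDX5ΔIEC strain of the study, were DDX5(fl/fl), Vil1Cre(+). Both genotypes thus carry the Cre recombinase, which the Villin1 promoter drives in epithelial cells, and DDX5KO mice lose the RNA helicase DDX5 in the epithelium and not in other cells. Each of the 4 groups, WT colon, DDX5KO colon, WT ileum and DDX5KO ileum, had 2 libraries, and libraries of equal genotype and number from both tissues came from 1 mouse, so that 4 mice gave 8 libraries. The comparisons ask where along the gut each transporter gene is expressed and whether its level differs when the epithelium lacks DDX5.

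SLC2 proteins (GLUTs) let sugars pass down their gradient, SLC5 proteins (SGLTs and relatives) couple uptake to sodium, and many SLC16 proteins (MCTs) carry lactate and other monocarboxylates with a proton. In the small intestine, SGLT1 takes up glucose and galactose from the lumen, GLUT5 takes up fructose, and GLUT2 passes these sugars on to the blood. In the colon, where microbes ferment fiber, MCT1 and the sodium-coupled SMCT1 take up short-chain fatty acids such as butyrate.

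The libraries held between 11571061 and 22984283 counts, of which the 39 genes together took between 0.177% and 0.364%. Levels are given in counts-per-million (CPM), with the library totals scaled by TMM over the 8 libraries. Ddx5 itself was at 706 to 771 CPM in WT colon, 355 and 367 in DDX5KO colon, 700.3 and 700.5 in WT ileum and 326 and 340 in DDX5KO ileum. The 7 epithelial markers summed to between 10554 and 17330 CPM in every library, and 9 markers of stroma, vessels and muscle to between 2.8 and 13.8. One library stood apart: DDX5KO ileum 2 had 19.5% of its counts on 3 repeat-like genes, against at most 4.05% in the others. A total of 2 libraries a group limits all tests below, and for a single value an exact permutation of 2 against 2 libraries cannot go below p = 0.333. In bulk samples, fewer cells of a type and less RNA per cell cannot be told apart.

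**Figure D1:**
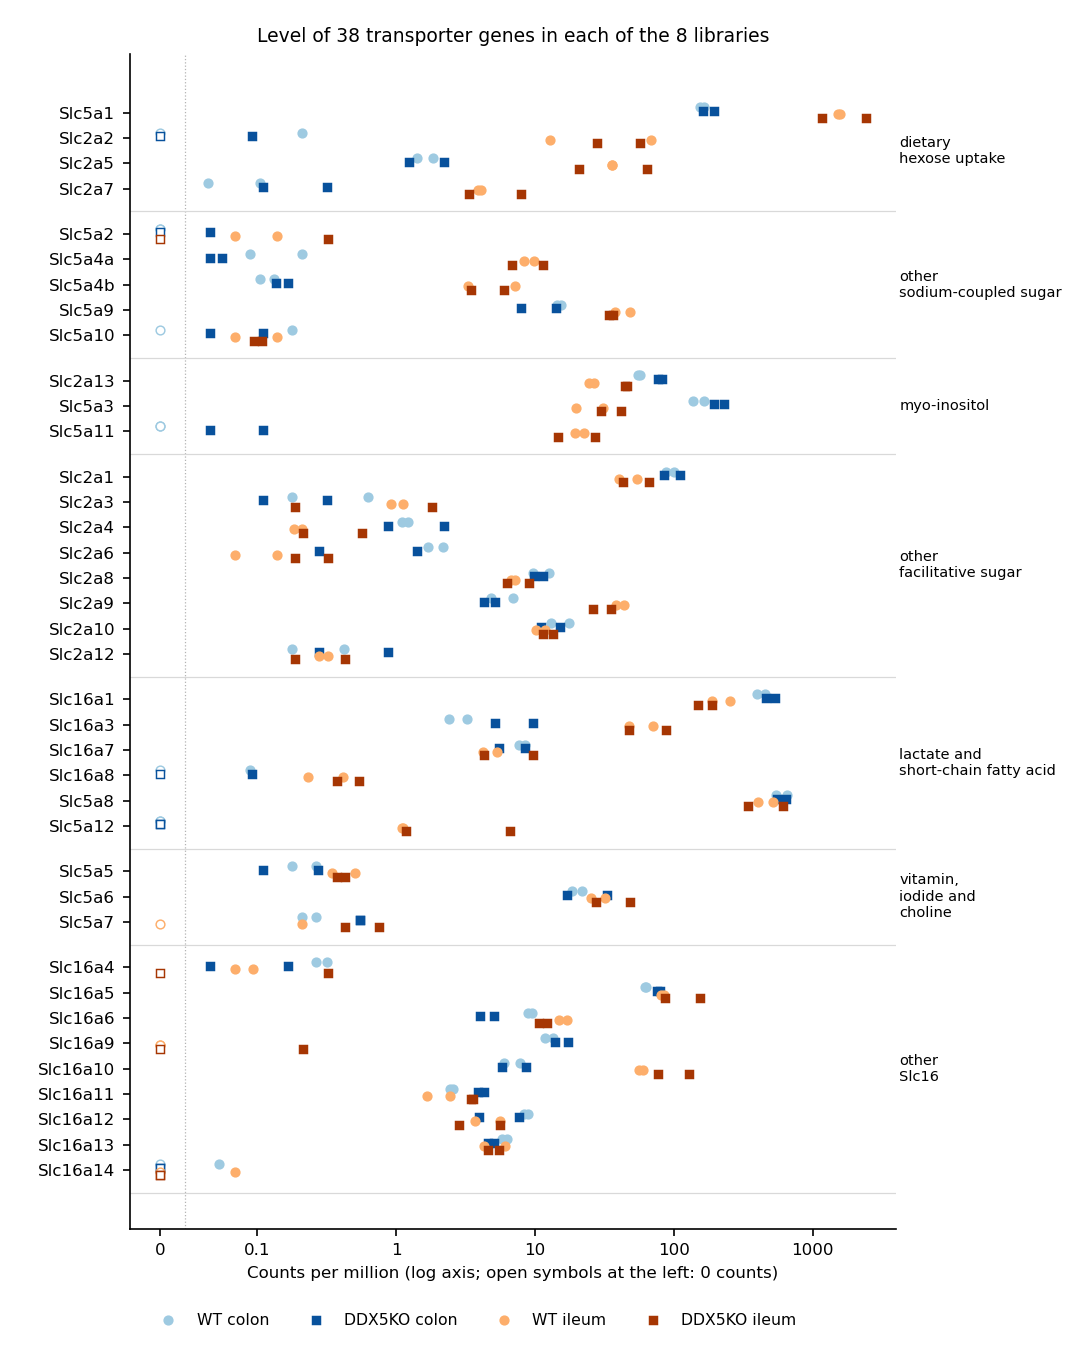
Level of 38 of the 39 genes (rows, grouped by role) in CPM on a log axis, 1 symbol per library, with circles for WT, squares for DDX5KO, blue for the colon and orange or brown for the ileum. Open symbols at the left edge are libraries with 0 counts. Slc5a8 is the highest gene in each colon library and Slc5a1 in each ileum library, and Slc2a2, Slc5a11 and Slc5a12 are near or at 0 in the colon.

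Slc5a8, Slc16a1 and Slc5a1 made up most of the transporter RNA in both tissues. Compared per kilobase of exon, WT colon had Slc5a8, which encodes SMCT1, at 112 ± 14.6 CPM per kilobase (SD, n = 2) and Slc16a1, which encodes MCT1, at 95.4 ± 9.16. SGLT1's gene Slc5a1 followed at 38.9 ± 2.03, Slc2a1, the gene of the widely expressed glucose transporter GLUT1, at 26.6 ± 2.45, and Slc16a5 at 16.9 ± 0.188. Slc5a8 and Slc16a1 do not differ beyond their spread, and each of the next steps in this order is larger than the SDs of its neighbours. In DDX5KO colon the first 5 genes were the same, with Slc16a1 at 113 ± 11.2 and Slc5a8 at 113 ± 11.4 CPM per kilobase.

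WT ileum had another order, with Slc5a1 at 376 ± 11.8 CPM per kilobase, Slc5a8 at 86.5 ± 15.7, Slc16a1 at 49.96 ± 10.7, Slc16a5 at 22.4 ± 0.724 and Slc2a1 at 13.4 ± 2.80. Slc16a3 at 11.1 ± 3.08 and Slc2a5 at 10.5 ± 0.00254 lay next and are within the SD of Slc2a1 or of each other. The share of Slc5a1 in the summed level per kilobase of the 39 genes was 58.4% in each WT ileum library, against 11.1% and 11.6% in the WT colon libraries. In DDX5KO it was 63.6% and 54.6% in the ileum and 11.7% and 11.3% in the colon. At the other end, Slc16a14 had 1 count in each of 2 libraries and 0 in the others, and Slc5a2, the gene of the kidney glucose transporter SGLT2, had 0.321 CPM or less in every library.

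**Figure D2:**
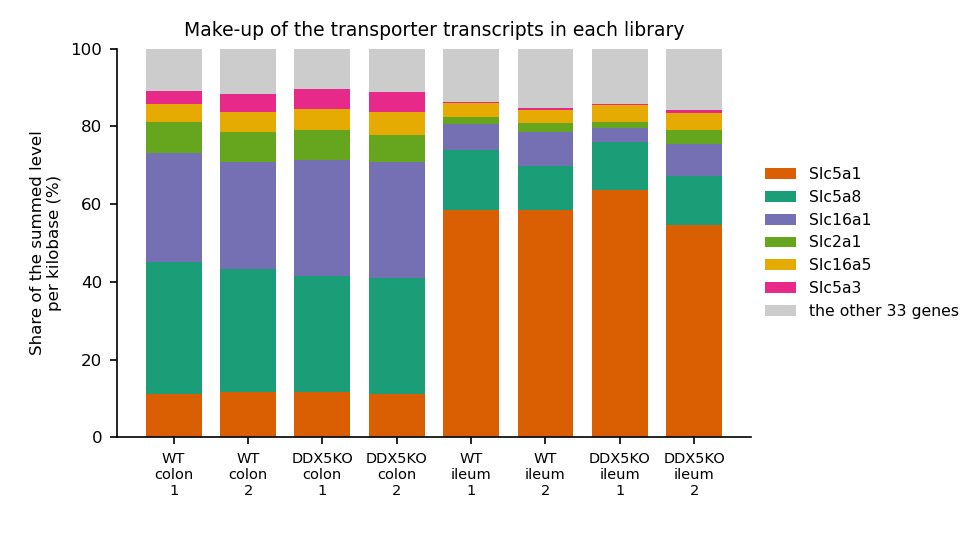
Share of the summed CPM per kilobase of the 39 genes that each of 6 genes took (stacked bars, in percent), 1 bar per library. Slc5a1 takes 54.6% to 63.6% in the 4 ileum libraries and 11.1% to 11.7% in the 4 colon libraries, where Slc5a8 and Slc16a1 are the largest shares.

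The ileum and the colon differed in most of the transporters measured. With the mouse as the replicate block, 32 of the 39 genes had counts enough to be tested. In WT, 14 were higher in the ileum and 9 in the colon at an adjusted p under 0.05 from edgeR's quasi-likelihood test. Over all 13101 protein-coding genes tested, 22.2% were higher in the WT ileum and 20.1% in the WT colon. In DDX5KO, 15 were higher in the ileum and 6 in the colon, against 22.5% and 19.7% of all protein-coding genes tested. The median log2 value of the 32 genes was 0.19 in WT and 0.60 in DDX5KO, beside −0.00811 and −0.00399 over all protein-coding genes tested. Genes with counts in 1 tissue alone passed the filter through that tissue, so these counts describe the genes tested and not all 39. Both genotypes gave the same call for 14 genes higher in the ileum and 6 higher in the colon. None was called in opposite directions, and 8 were called in neither. When a library is left out below, its mouse no longer informs the tissue difference, which then rests on 1 mouse in that genotype. Leaving out the colon or the ileum library of a mouse is thus nearly the same check.

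The 4 genes of dietary hexose uptake were all higher in the ileum in both genotypes. Slc5a1 (chr5:33104219-33162870, plus strand, GRCm38), the gene of SGLT1, was at 165 and 154 CPM in WT colon, 194 and 162 in DDX5KO colon, 1508 and 1577 in WT ileum and 2413 and 1156 in DDX5KO ileum. Every ileum library lay above every colon library, and the DDX5KO ileum libraries lay on either side of the WT pair. The ileum was 9.67-fold higher in WT (log2 3.27 ± 0.22, SE; adjusted p = 7.7e-05 in edgeR's quasi-likelihood test) and 9.42-fold higher in DDX5KO (log2 3.24 ± 0.22; adjusted p = 8.87e-05).

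Slc2a2 (chr3:28697903-28731359, plus strand), the gene of GLUT2, was at 0.21 and 0 CPM in WT colon, 0 and 0.0912 in DDX5KO colon, 12.8 and 68.1 in WT ileum and 57.1 and 27.9 in DDX5KO ileum. The ileum libraries did not overlap with the colon, and the WT ileum pair enclosed both DDX5KO values. Its log2 difference between the tissues was 8.61 ± 0.65 in WT (adjusted p = 0.000118, edgeR's quasi-likelihood test). Since all WT colon counts came from WT colon 1, that value ran from 5.88 without WT colon 2 to 13.17 without WT colon 1, and its size is not well set. In DDX5KO, where the colon held 2 counts in all, the ratio was 871-fold with an exact 95% interval from 240.3 to 7202, which covers counting error only.

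Slc2a5 (chr4:150119283-150144169, plus strand), the gene of the fructose transporter GLUT5, was at 1.42 and 1.85 CPM in WT colon, 2.21 and 1.23 in DDX5KO colon, 35.8 in both WT ileum libraries, and 63.4 and 20.8 in DDX5KO ileum. It was 21.8-fold higher in the WT ileum (log2 4.44 ± 0.21) and 22.9-fold higher in the DDX5KO ileum (log2 4.52 ± 0.21), with adjusted p = 1.61e-05 and 1.75e-05 in edgeR's quasi-likelihood test. Its neighbour on the chromosome, Slc2a7 (chr4:150148972-150168482), the gene of GLUT7, was at 0.044 to 0.319 CPM in the colon libraries and at 3.32 to 7.96 in the ileum libraries. In WT, where the colon held 3 counts, the ileum was 55.5-fold higher with an exact 95% interval from 18.6 to 273.

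Of the other sodium-coupled sugar transporters, the 3 that could be tested were higher in the ileum too. Slc5a4a and Slc5a4b, relatives of SGLT1 that lie side by side on chromosome 10, were at 0.21 CPM or less in each colon library and at 6.85 to 11.3 and 3.28 to 7.21 in the ileum. Their log2 differences in WT were 5.90 ± 0.35 and 5.39 ± 0.40. The 2 genes share few 50-base words, 0.0499% of those of Slc5a4a, so that uniquely mapped reads can be told apart. Slc5a9, which encodes the mannose transporter SGLT4, was at 7.89 to 15.4 CPM in the colon and 34.0 to 48.4 in the ileum, 2.89-fold higher in WT and 3.27-fold in DDX5KO. Slc5a2 and Slc5a10 had too few counts to be tested.

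The genes of myo-inositol uptake were split between the tissues. Slc5a11, which encodes the sodium-coupled SMIT2, had 0 counts in both WT colon libraries and 3 in the DDX5KO colon pair, against 22.7 and 19.5 CPM in WT ileum and 27.2 and 14.7 in DDX5KO ileum. With the floor of 3 counts over the 2 WT colon libraries, the WT ileum was at least 298-fold higher, and the DDX5KO ratio was 285-fold with an exact 95% interval from 96.8 to 1387. Slc5a3, which encodes SMIT1, and Slc2a13, which encodes the proton-coupled HMIT, were higher in the colon. In WT the colon was 6.10-fold higher for Slc5a3 and 2.18-fold higher for Slc2a13, and in DDX5KO 5.99-fold and 1.74-fold.

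**Figure D3:**
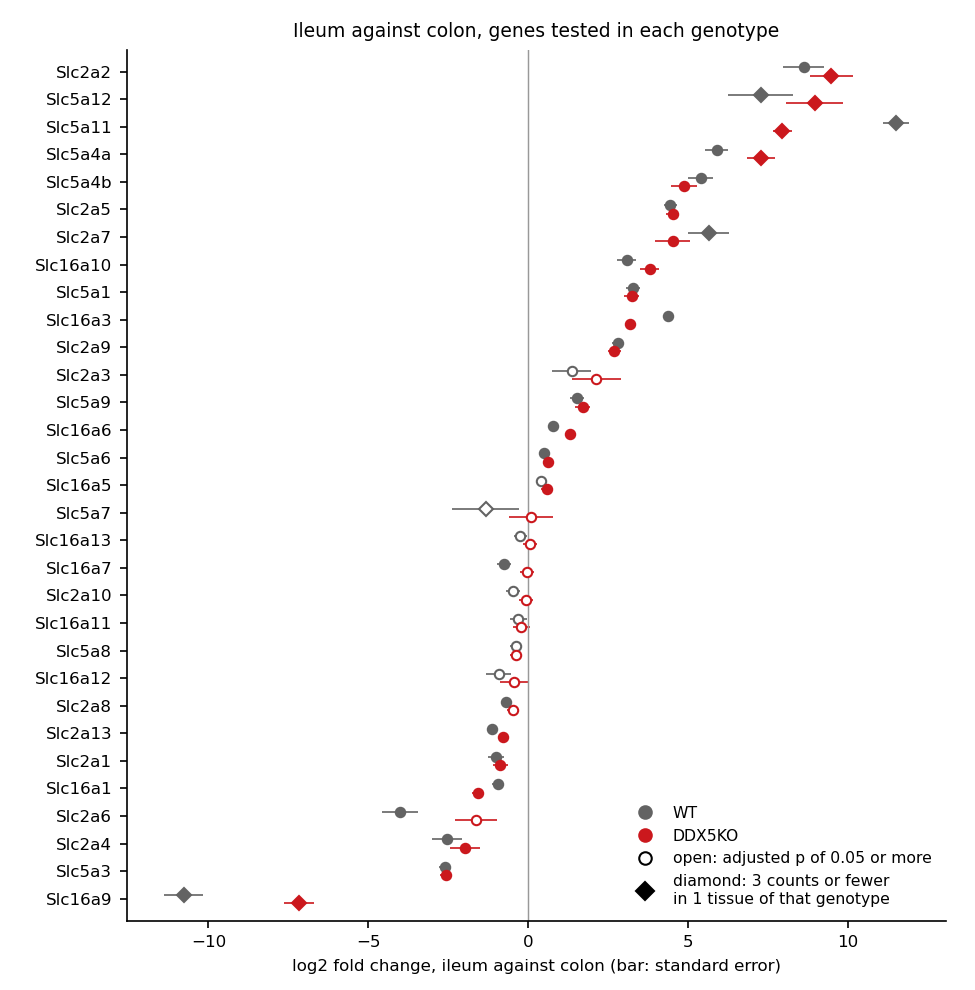
Log2 fold change of the ileum against the colon (horizontal axis, bars: standard error) for 31 of the 32 genes tested (rows), with gray for WT and red for DDX5KO. Filled symbols have an adjusted p under 0.05, and diamonds mark genes with 3 counts or fewer in 1 tissue of that genotype, whose fitted size is no bound. The genes from Slc2a2 down to Slc2a9 lie right of 0 and Slc16a9 to Slc16a1 left of 0 in both genotypes.

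Among the other facilitative sugar transporters, Slc2a9 and Slc2a1 were called in opposite directions. Slc2a9, which carries urate, was at 4.25 to 6.99 CPM in the colon and 26.2 to 43.9 in the ileum, 7.02-fold higher in the WT ileum. Slc2a1 was at 85.3 to 111 CPM in the colon and 40.1 to 65.7 in the ileum, 2.00-fold higher in the WT colon (adjusted p = 0.0169, edgeR's quasi-likelihood test) and 1.82-fold in the DDX5KO colon. The WT call of Slc2a1 was lost without WT colon 1 or WT ileum 1 (adjusted p = 0.216 and 0.223 in edgeR's test), and its DDX5KO call without DDX5KO colon 1 or DDX5KO ileum 1 (0.163 and 0.155). Slc2a4, the gene of the insulin-responsive GLUT4, was low in both tissues, at 0.866 to 2.21 CPM in the colon and 0.185 to 0.562 in the ileum, and was called higher in the colon in both genotypes. The WT call of Slc2a4 was lost without any 1 of the 4 WT libraries, and its DDX5KO call without DDX5KO colon 1, DDX5KO ileum 1, WT colon 1 or WT colon 2. Slc2a6 and Slc2a8 were called higher in the colon in WT alone, and lost the call without WT colon 2 and without any 1 of the 4 WT libraries, respectively. Their tissue differences did not pass the test of a difference between the genotypes (adjusted p = 0.795 and 0.922, edgeR's quasi-likelihood test). Slc2a3 was not called, at 0.11 to 1.82 CPM over all libraries, nor was Slc2a10, at 10.2 to 17.7 CPM, and Slc2a12 had too few counts.

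The lactate and short-chain fatty acid transporters did not move as a group. MCT1's gene Slc16a1 (chr3:104638668-104658462, plus strand) was at 451 and 394 CPM in WT colon, 534 and 463 in DDX5KO colon, 188 and 255 in WT ileum and 149 and 189 in DDX5KO ileum. All colon libraries lay above all ileum libraries, by 1.93-fold in WT and 2.97-fold in DDX5KO (adjusted p = 0.0091 and 0.00116, edgeR's quasi-likelihood test). The WT call was lost without WT colon 1 or WT ileum 1, each of which leaves 1 WT mouse in the comparison. The WT log2 value was then −0.64 and −0.63, against −0.95 with all libraries. In DDX5KO the log2 value was −1.57, and ran from −1.84 to −1.30 with a library left out. Slc16a3 (chr11:120948480-120960868, plus strand), the gene of the lactate exporter MCT4, went the other way, at 2.42 to 9.66 CPM in the colon and 47.2 to 87.6 in the ileum. Its ileum level was 20.9-fold higher in WT (log2 4.39 ± 0.13; adjusted p = 3.86e-06) and 9.15-fold higher in DDX5KO (log2 3.19 ± 0.12; adjusted p = 7.02e-06) in the same edgeR test.

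Slc5a8 (chr10:88885992-88929515, plus strand) was abundant in both tissues, at 545 to 655 CPM in the colon and 343 to 614 in the ileum. Its difference between the tissues was not called (log2 −0.39 ± 0.17 in WT and −0.38 ± 0.17 in DDX5KO; adjusted p = 0.122 and 0.124 in edgeR's quasi-likelihood test). This depended on the setting. It was called in both genotypes when no filter on low counts was used (log2 −0.43 in WT and −0.46 in DDX5KO). Without any 1 of the 4 DDX5KO libraries the WT log2 value stayed at −0.39. Those libraries hold no WT data, but both genotypes share 1 estimate of the spread. In DDX5KO the log2 value ran from −0.71 to −0.05 with a library left out. Slc5a12, which encodes the low-affinity SMCT2, had 0 counts in every colon library and 24, 16, 70 and 11 counts in WT ileum 1 and 2 and DDX5KO ileum 1 and 2. The ileum was at least 15.4-fold higher in WT and at least 54.0-fold higher in DDX5KO against a floor of 3 counts over each colon pair. Slc16a7, the gene of MCT2, was at 4.23 to 9.64 CPM over all libraries and was called in WT alone, a call lost without any 1 of the 4 WT libraries, and Slc16a8 had at most 6 counts in a library.

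The remaining Slc16 genes included the largest fitted log2 value toward the colon. Slc16a9 (chr10:70245100-70285968, plus strand), which is linked to carnitine export, was at 13.3 and 11.7 CPM in WT colon and 13.8 and 17.3 in DDX5KO colon, with 0 counts in 3 of the 4 ileum libraries and 2 in DDX5KO ileum 2. The WT colon was at least 150-fold higher, and the DDX5KO colon 157-fold with an exact 95% interval from 43.4 to 1302. Of the 50-base words of Slc16a9, 19% are also in transcripts of other genes. Slc16a10, which carries aromatic amino acids, was at 5.74 to 8.57 CPM in the colon and 55.9 to 129 in the ileum, 8.47-fold higher in WT and 13.9-fold in DDX5KO. Slc16a6 was higher in the ileum with log2 values of 0.78 in WT and 1.32 in DDX5KO, and lost the WT call without any 1 of the 4 WT libraries. Slc16a5 was called higher in the ileum in DDX5KO alone (log2 0.58 ± 0.18, and 0.40 ± 0.17 in WT), and this did not pass the test of a difference between the genotypes (adjusted p = 0.929, edgeR's quasi-likelihood test). The call was lost without any 1 of 6 libraries, and its log2 value was 0.18 without DDX5KO colon 1 or DDX5KO ileum 1. Slc16a11, Slc16a12 and Slc16a13 were called in neither genotype.

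Slc5a6, the gene of the sodium-coupled carrier of biotin and pantothenate, was at 17.1 to 32.7 CPM in the colon and 25.4 to 47.9 in the ileum. It was called higher in the ileum in both genotypes, 1.41-fold in WT and 1.53-fold in DDX5KO, and lost both calls without the mouse block and the WT call without any 1 of the 4 WT libraries. Of the 50-base words of Slc5a6, 20.8% are also in transcripts of other genes. Of its exonic bases, 9.92% are also exons of Atraid on the opposite strand. The part of this sharing in its counts was not tested. Slc5a5, the iodide transporter gene, and Slc5a7, the choline transporter gene, were at or under 0.75 CPM in every library.

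Genes around these transporters also differed between the tissues. Of 25 listed companions, 24 were tested. At an adjusted p under 0.05 in edgeR's test, 14 were higher in the WT ileum and 7 in the WT colon. Over all protein-coding genes tested, 22.2% were higher in the WT ileum and 20.1% in the WT colon. The disaccharidase genes Sis, Lct, Mgam and Treh and the genes of fructose handling Khk and Tkfc were all among the 14. Sucrase-isomaltase, encoded by Sis, was at 0.386 to 12.2 CPM in the colon and 2377 to 4000 in the ileum. The hexokinase genes Hk1 and Hk2 and the lactate dehydrogenase gene Ldhb were higher in the colon, and Ldha in the ileum. Bsg, whose product brings MCT1 and MCT4 to the membrane, was at 343 to 399 CPM over all 8 libraries and was not called in any comparison. The 9 leukocyte markers also differed, at 13.6 to 110 CPM in the colon and 270.5 to 1005 in the ileum, and the 4 Paneth cell markers at 17.2 to 77.7 CPM in the colon and 6760 to 10224 in the ileum. The 6 ileal enterocyte markers summed to 293 to 530 CPM in the colon and 8526 to 14462 in the ileum, and the part of cell makeup in the transporter values was not tested.

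In the colon, loss of DDX5 went with 3 changes past the study's criterion, an unadjusted p under 0.05 with an absolute log2 fold change of at least 0.5. Of the 39 genes, 25 were tested, and Slc16a3 and Slc16a11 were higher and Slc16a6 lower in DDX5KO. That is 2 higher, against 2.64% of the 12557 protein-coding genes tested, and 1 lower, against 4.01%. None passed an adjusted p under 0.05 in edgeR's quasi-likelihood test, as for 0% of protein-coding genes, and DESeq2 on the same libraries called 2 by the criterion. Without DDX5KO colon 1 and without DDX5KO colon 2, log2 values were −0.88 and −1.21 for Slc16a6, 0.44 and 0.54 for Slc2a13, and 0.36 and 0.59 for Slc5a3. They were 0.12 and 0.32 for Slc16a1 and 0.84 and 1.75 for Slc16a3. These fits have 1 library in the DDX5KO arm, and many more of all protein-coding genes passed an adjusted p under 0.05 in them. Their calls are therefore not read. Without the fold change limit, 7 of the 25 had p under 0.05, against 12.9% of all. The median log2 value of the 25 was 0.04, and −0.00151 over the protein-coding genes.

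The colon's lactate exporter gene Slc16a3 was at 2.42 and 3.21 CPM in WT and 9.66 and 5.10 in DDX5KO. Both DDX5KO libraries lay above both WT libraries, and the DDX5KO pair differed more than the WT pair did. It was 2.48-fold higher (log2 1.31 ± 0.37, adjusted p = 0.331 in edgeR's quasi-likelihood test). With a library left out, its log2 value ran from 0.84 to 1.75. Slc16a11, a liver-rich member whose variants are linked to diabetes risk in people, was at 2.57 and 2.42 CPM in WT and 4.25 and 3.87 in DDX5KO, 1.61-fold higher (log2 0.69 ± 0.23; adjusted p = 0.364 in edgeR's test). DESeq2 did not call it, nor did the fit without either WT library.

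Slc16a6 (chr11:109450855-109473598, minus strand), a member linked to ketone body export from the liver, was at 8.93 and 9.51 CPM in WT colon and 4.03 and 5.06 in DDX5KO colon. Both DDX5KO libraries lay below the WT pair, and the level was 2.05-fold lower (log2 −1.03 ± 0.19; adjusted p = 0.26 in edgeR's quasi-likelihood test). The call held in all 8 other settings, and with a library left out the log2 value ran from −1.21 to −0.88. In the ileum it was at 17.0 and 14.8 CPM in WT and 10.6 and 12.1 in DDX5KO, again without overlap, and its log2 value of −0.49 ± 0.18 (adjusted p = 0.296 in edgeR's test) lay just inside the fold change limit. Of its exonic bases, 21.5% are also exons of Amz2 on the opposite strand. Amz2 itself had a colon log2 value of 0.03 and an ileum log2 value of 0.13, neither past the criterion.

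Colon cell markers moved with the genotype as well. The 9 leukocyte markers summed to 110.0 and 110.3 CPM in WT colon and 13.6 and 29.8 in DDX5KO colon, with 3 of 7 tested lower; the B cell marker Cd79a was at 0 in WT colon 2 and in both DDX5KO colon libraries. Of 6 colonocyte markers 4 were higher, at 3394 and 3649 CPM in WT and 4222 and 4679 in DDX5KO, and 2 of 4 goblet cell markers were lower, at 43062 and 48304 against 24461 and 38337 CPM. Their part in the 3 transporter values was not tested. With DDX5KO colon 1 or DDX5KO colon 2 left out, more transporter genes were past the criterion, and so were more of all protein-coding genes. Such fits leave 1 library in an arm, and the rise is not read as particular to the transporters.

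**Figure D4:**
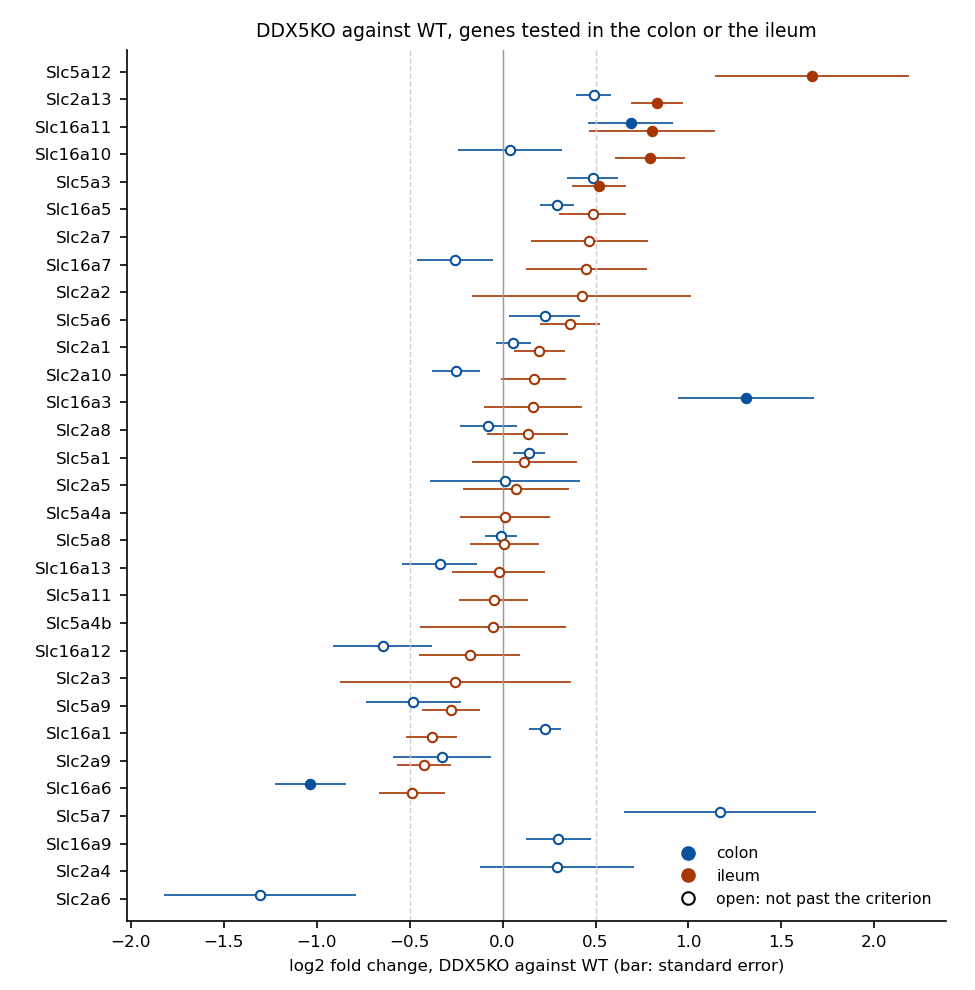
Log2 fold change of DDX5KO against WT (horizontal axis, bars: standard error) in the colon (blue) and the ileum (brown) for the genes tested there (rows), with 1 gene left out. Filled symbols are past the criterion, and dashed lines mark a log2 value of 0.5 in either direction. Of the 8 filled symbols, 7 lie right of 0 and Slc16a6 in the colon lies left.

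In the ileum, 5 of 28 genes tested were past the criterion, all of them higher in DDX5KO: Slc2a13, Slc5a3, Slc16a10, Slc16a11 and Slc5a12. The 5 higher compare with 3.78% of the 12064 protein-coding genes tested, and the 0 lower with 2.83%. Slc2a13 also passed an adjusted p under 0.05, as did 0.705% of protein-coding genes, but lost this without the replicate block, whose number is not stated to mark pairs. At an unadjusted p under 0.05 alone there were 10 of 28, against 12.2%. With an ileum library left out, log2 values ran from 0.78 to 0.88 for Slc2a13, 0.41 to 1.17 for Slc16a10 and 0.22 to 0.86 for Slc5a3. They ran from 0.52 to 1.07 for Slc16a11 and from 0.09 to 2.57 for Slc5a12. These fits have 1 library in an arm, and their calls are not read. The median log2 value of the 28 was 0.13, beside 0.00399 over all protein-coding genes tested.

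Slc2a13 (chr15:91267696-91573261, minus strand), which encodes the proton-coupled myo-inositol transporter HMIT, had the smallest p of the 28. It was at 26.4 and 24.6 CPM in WT ileum and 46.0 and 44.6 in DDX5KO ileum, 1.78-fold higher (log2 0.83 ± 0.14; adjusted p = 0.0286 in edgeR's quasi-likelihood test). The pairs did not overlap and each was narrow. In edgeR's test the adjusted p was 0.305 without the replicate block, 0.359 with crossed pairs, 0.0647 with all 8 libraries in 1 fit, 0.058 without the 3 repeat-like genes and from 0.0941 to 0.9995 with a library left out, and in DESeq2 it was 0.0994. It stayed under 0.05 with RLE size factors and with no filter on low counts. Leaving out each ileum library in turn gave log2 values from 0.78 to 0.88. In the colon it was at 56.8 and 54.8 CPM in WT and 81.6 and 76.2 in DDX5KO, again without overlap and 1.40-fold higher (log2 0.49 ± 0.09; adjusted p = 0.261 in edgeR's test), which lies just under the fold change limit. A fit of all 8 libraries put it past the criterion in the colon too.

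Slc5a3 (chr16:92058322-92087473, plus strand) encodes SMIT1, the sodium-coupled myo-inositol transporter that cells raise under high salt. It was at 138 and 163 CPM in WT colon and 230 and 195 in DDX5KO colon, with the DDX5KO pair above the WT pair (1.40-fold; log2 0.48 ± 0.14; adjusted p = 0.332 in edgeR's test). In the ileum it was at 19.8 and 30.7 CPM in WT and 29.9 and 41.5 in DDX5KO. Those pairs overlap, and the ileum call (1.43-fold; log2 0.52 ± 0.15; adjusted p = 0.17 in edgeR's test) was lost without the replicate block, with crossed pairs, with all 8 libraries in 1 fit and with no filter on low counts. Of its exonic bases, 1.46% are also exons of Mrps6 on the same strand. Mrps6 had a colon log2 value of 0.28 and an ileum log2 value of 0.13, neither past the criterion. The third myo-inositol gene, Slc5a11, had a log2 value of −0.05 ± 0.19 in the ileum.

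The promoter windows at the start of these myo-inositol genes are shown because both had p under 0.05 in each tissue with the DDX5KO mean higher, as did Slc16a5 and Slc16a11, which are not shown. Beside them stand Slc5a1, the gene with the highest level per kilobase in the ileum, and Slc16a1, which with Slc5a8 had the highest levels in the colon. Sequences are RefSeq's for GRCm38.p6, 250 bases before the start site to 50 after it, written 5′ to 3′ on the gene's strand, and 29 of the 39 genes had at least 1 such window. Capitals mark GGGCGG, the GC box that Sp family factors bind, and CACGTG, the E-box, on either strand. The TATA box TATAAA, the HNF1 half-site GTTAAT and the TonE core TGGAAA were searched too and had no match in these 4 windows.
Slc2a13, chr15:91573212-91573511, minus strand: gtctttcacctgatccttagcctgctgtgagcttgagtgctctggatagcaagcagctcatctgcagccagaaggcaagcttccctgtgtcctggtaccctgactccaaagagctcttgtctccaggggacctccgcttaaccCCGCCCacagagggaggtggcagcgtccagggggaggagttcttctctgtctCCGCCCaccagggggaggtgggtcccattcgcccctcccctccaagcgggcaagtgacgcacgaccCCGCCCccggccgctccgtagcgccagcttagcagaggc
Slc5a3, chr16:92058072-92058371, plus strand: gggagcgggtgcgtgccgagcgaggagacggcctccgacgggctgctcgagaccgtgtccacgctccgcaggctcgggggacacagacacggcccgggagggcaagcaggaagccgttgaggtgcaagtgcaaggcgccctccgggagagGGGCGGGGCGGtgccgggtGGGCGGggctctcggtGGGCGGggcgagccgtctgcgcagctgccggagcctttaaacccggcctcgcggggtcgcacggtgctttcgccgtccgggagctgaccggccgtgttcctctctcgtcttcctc
Slc5a1, chr5:33103969-33104268, plus strand: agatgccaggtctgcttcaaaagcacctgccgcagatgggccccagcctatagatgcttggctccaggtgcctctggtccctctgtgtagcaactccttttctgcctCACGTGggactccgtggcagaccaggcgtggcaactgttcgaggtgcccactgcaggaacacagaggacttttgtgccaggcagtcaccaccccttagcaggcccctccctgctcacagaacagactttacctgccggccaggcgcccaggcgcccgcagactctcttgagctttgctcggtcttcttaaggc
Slc16a1, chr3:104638414-104638713, plus strand: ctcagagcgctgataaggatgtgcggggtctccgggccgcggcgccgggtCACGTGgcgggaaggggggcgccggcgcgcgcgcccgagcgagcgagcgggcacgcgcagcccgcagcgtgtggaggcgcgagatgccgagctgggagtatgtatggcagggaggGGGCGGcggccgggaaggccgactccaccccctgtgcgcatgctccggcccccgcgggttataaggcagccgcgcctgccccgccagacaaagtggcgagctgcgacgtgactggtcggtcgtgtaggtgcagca

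The window of Slc2a13 held GGGCGG at 3 places and that of Slc5a3 at 4, some of them overlapping, and neither held CACGTG. Slc5a1 held CACGTG once and no GGGCGG, and Slc16a1 held each of them once. Among 32817 promoter windows of the same length, 35.6% held GGGCGG and 7.15% held CACGTG on either strand. Of the other genes with a window that were higher in the ileum in both genotypes, Slc2a2, Slc2a9, Slc5a11 and Slc5a4b held none of the 5 motifs, while Slc2a5, Slc16a3, Slc16a10 and both windows of Slc5a6 held GGGCGG, and Slc5a4a and Slc2a7 held others of the 5. The windows of Slc5a3 and Slc16a1 were 73.3% and 73.7% G and C with 38 and 42 CG pairs, against medians of 52.7% and 7 over all windows. A match says that these letters are in the window and nothing of what binds there.

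Slc16a10 (chr10:40033532-40142258, minus strand) was at 55.9 and 59.9 CPM in WT ileum and 129 and 76.9 in DDX5KO ileum, 1.73-fold higher (log2 0.79 ± 0.19; adjusted p = 0.103 in edgeR's quasi-likelihood test). Both DDX5KO libraries lay above the WT pair, with DDX5KO ileum 1 far above the other. Its adjusted p in edgeR was 0.00333 with no filter on low counts. In that fit 345 of 20009 protein-coding genes passed an adjusted p under 0.05, against 85 of 12064 with the filter. In edgeR's test the adjusted p was 0.549 without the replicate block, 0.586 with crossed pairs and 0.35 with all 8 libraries in 1 fit. DESeq2 gave an adjusted p of 0.164. Its log2 value was 0.41 without DDX5KO ileum 1 and 1.17 without DDX5KO ileum 2. In the colon it was at 7.77 and 5.99 CPM in WT and 5.74 and 8.57 in DDX5KO, with a log2 value of 0.04 ± 0.28. Slc16a11 was at 1.66 and 2.43 CPM in WT ileum and 3.56 and 3.43 in DDX5KO ileum, without overlap, 1.75-fold higher (log2 0.80 ± 0.34; adjusted p = 0.365 in edgeR's test), and was lost with DESeq2 and with crossed pairs. Slc16a11 was thus past the criterion in both tissues, at 32 to 85 counts in a library.

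Slc5a12 rested on 1 library. It was at 1.11 CPM in both WT ileum libraries and at 6.56 and 1.178 in DDX5KO ileum, a log2 value of 1.66 ± 0.52 (adjusted p = 0.216 in edgeR's test) that fell to 0.09 without DDX5KO ileum 1. That library also held the highest level of 15 of the 28 transporter genes tested, Slc5a1, Slc2a5, Slc16a10 and Slc16a5 among them, and the highest sum of ileal enterocyte markers, 14462 CPM against 8526 to 10828 in the others. DDX5KO ileum 2 held the lowest level of 10. These counts were not made over all genes tested, so they are not read as particular to the transporters. The leukocyte markers summed to 1005 and 486 CPM in WT ileum and 816 and 270.5 in DDX5KO ileum, with 1 of 7 tested higher and 1 lower, and the part of these differences in the transporter values was not tested. Without DDX5KO ileum 2 the count of transporter genes past the criterion rose, and without WT ileum 1 it fell. The count over all protein-coding genes moved the same way in both fits, each of which leaves 1 library in an arm.

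**Figure D5:**
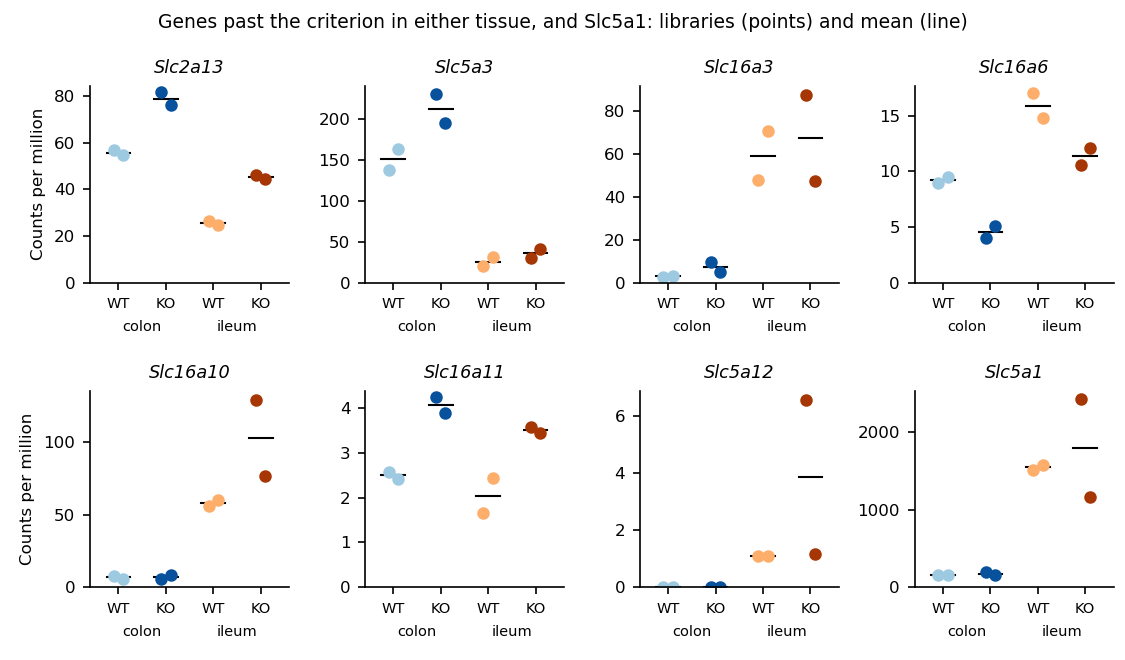
Level in CPM (vertical axes from 0) of the 7 genes past the criterion in either tissue and of Slc5a1, with 1 point per library and a line at each group's mean. The Slc2a13 pairs are tight and apart in both tissues, at 44.6 and 46.0 against 24.6 and 26.4 in the ileum, while Slc5a12 and Slc5a1 in DDX5KO ileum are spread widely between 2 libraries.

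The hexose uptake genes showed no call between the genotypes with all libraries in the fit. Slc5a1 had log2 values of 0.14 ± 0.09 in the colon and 0.12 ± 0.28 in the ileum, Slc2a5 of 0.01 ± 0.40 and 0.07 ± 0.29, and in the ileum Slc2a2 of 0.43 ± 0.59 and Slc2a7 of 0.47 ± 0.31. With the spread of Slc2a2 in 2 libraries a group, a difference of this size was not detectable. The ileum values turned on single libraries. Fits that leave out an ileum library have 1 library in an arm, and their calls are not read. With a library left out, log2 values ran from −0.41 to 0.65 for Slc5a1, from −0.78 to 0.83 for Slc2a5 and from −0.68 to 1.73 for Slc2a2. The short-chain fatty acid carrier gene Slc5a8 was at 655 and 545 CPM in WT colon and 643 and 557 in DDX5KO colon, and its log2 values were −0.01 ± 0.09 in the colon and 0.01 ± 0.19 in the ileum. Slc16a1 had opposite signs, 0.23 ± 0.09 in the colon and −0.38 ± 0.14 in the ileum (adjusted p = 0.406 and 0.295 in edgeR's test), neither of them past the fold change limit. Slc16a5 had log2 values of 0.29 ± 0.09 and 0.49 ± 0.18, also under the limit, and the urate carrier gene Slc2a9 of −0.42 ± 0.15 in the ileum.

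Whether the genotype difference itself differed between the tissues was tested over all 8 libraries with the mouse as the block. None of 32 genes passed an adjusted p under 0.05 in edgeR's quasi-likelihood test, nor in DESeq2, and 0.00763% of the 13101 protein-coding genes tested did. At an unadjusted p under 0.05 there were 4, Slc16a3, Slc16a6, Slc2a13 and Slc5a11, against 6.89% of all. Slc16a3 came nearest, with a genotype difference that was 1.19 ± 0.17 lower on the log2 scale in the ileum than in the colon (adjusted p = 0.202 in edgeR). It passed when no filter on low counts was used, as did 296 of 20229 protein-coding genes, against 1 of 13101 with the filter. With a library left out, its log2 value ran from −1.26 to −1.10. That of Slc16a10, 0.72 ± 0.41 with all libraries, ran from 0.08 to 1.44. For the myo-inositol pair the difference between the tissues was 0.33 ± 0.13 for Slc2a13 (adjusted p = 0.778 in edgeR) and 0.02 ± 0.26 for Slc5a3 (adjusted p = 0.997). The Slc5a11 value rests on a WT colon at 0 counts and its size is not read.

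Of the companion genes, 21 were tested between the genotypes in the colon and 23 in the ileum. By the same criterion the MCT chaperone gene Emb was lower in DDX5KO colon (0.386 and 0.957 CPM against 2.26 and 1.58), the trehalase gene Treh was higher in DDX5KO ileum (88.4 and 62.4 CPM against 53.9 and 49.1) and Fbp1, of gluconeogenesis, was lower there. Neither of the sodium pump genes Atp1b1 and Atp1b3, which help set the gradient that SLC5 carriers use, and none of the sugar-responsive genes Txnip, Arrdc4 and Mlxipl passed it in either tissue. No companion passed the test of a difference between the tissues.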

How the data were processed

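RNAseq of IECs was analysed in 8 libraries. The authors aligned paired-end reads of ribosome-depleted RNA to mm10 with STAR 2.6.1a and deposited raw counts of uniquely mapped reads over exons from featureCounts. They also deposited a normalized signal, the counts divided by DESeq2 size factors, which was not used, their gene length column, used for levels per kilobase, and their own fold changes and p-values, also not used. Whether counting used strand is not given in the sources used here. Groups came from the sample labels.

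Genes were filtered with filterByExpr (minimum count 10), normalized by TMM and tested with edgeR 4.0.16 (quasi-likelihood, Benjamini-Hochberg over all genes tested), in R 4.3.3. Genotypes were compared within each tissue with the replicate number as block, since the study's own model had a harvest term; the labels do not say that the number marks the harvest, and the replicate differences of WT and DDX5KO correlated at 0.0253 in the colon and 0.241 in the ileum. Tissues were compared over all 8 libraries with the mouse as block, which the study's supplementary column names give, and those differences correlated at 0.181 in WT and 0.21 in DDX5KO. DESeq2 1.42.0, other normalization, filters, blocks and libraries left out were tried as alternatives. On simulated counts, 200 genes were changed by 1.5 on the log2 scale. The criterion called 98.5% of them in the colon (15362 genes) and 97.0% in the ileum (14068), and 3.01% and 3.53% of unchanged genes. The tissue test called 87.5% (16178 genes) and 0.106%. The changed genes were drawn above a floor on the mean count, with no replicate or mouse effect. Their change was larger than that of every gene past the criterion but Slc5a12. The shares thus do not hold for smaller changes or low counts. Libraries held 11571061 to 22984283 counts, and nothing in the labels tells separate harvests from repeats. The genotype p-values measure the spread left after the replicate block. The tissue p-values measure the spread of differences within mice, with 1 estimate shared by both genotypes. Both rest on 2 mice a group.

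The 39 genes, the companion and marker lists and the tests were chosen with earlier results of these data known. A gene of the set and 3 listed genes are counted but not reported here by name. Named genes were those called in any comparison, the 5 with the highest level per kilobase in WT colon and in WT ileum, and 7 with a known role in the gut. Overlapping genes and motifs were chosen after the values were seen. Positions are from GENCODE vM21 (GRCm38), matched by versioned identifier, and 50-base words were compared over its transcripts.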

Additional observations from a re-analysis of the deposited data

How the results depend on the processing

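The tissue counts stayed within 1.5 times of 23 in WT and 21 in DDX5KO under every alternative run, with ranges of 16 to 27 and 19 to 22 when each library was left out. With DESeq2 the tissue calls of Slc5a12, Slc16a7 and Slc2a8 were lost in WT and those of Slc5a12 and Slc2a4 in DDX5KO, and without the mouse as replicate block those of Slc5a6 in both genotypes, Slc16a7 in WT and Slc16a5 in DDX5KO. With a library left out, tissue calls of Slc16a1, Slc2a1, Slc2a4, Slc2a6, Slc2a8, Slc16a6, Slc16a7 and Slc5a6 were lost in WT and those of Slc2a1, Slc2a4 and Slc16a5 in DDX5KO. The genotype counts moved more. The adjusted p of Slc2a13 in the ileum, 0.0286, was 0.305 without the replicate block and 0.359 with crossed pairs. In the colon, 3 genes were past the criterion, 5 with no filter on low counts, 4 without the replicate block, 2 with DESeq2, and 3 to 11 with a library left out. In the ileum, 5 were past it, 4 without the replicate block, 3 with DESeq2, 3 with crossed pairs, 1 (Slc5a12) at a log2 limit of 1, and 1 to 12 with a library left out. The test of a difference between the tissues called 0, but 1 (Slc16a3) with no filter. That fit called 296 protein-coding genes, against 1 with the filter. The log2 value of Slc2a5 in the ileum ranged from −0.78 to 0.83 with a library left out, and it turned without DDX5KO ileum 1. The cause of these changes was not tested. Fits that leave out a library within a tissue have 1 library in an arm and assume that it varies like the other group. A tissue comparison with a library left out rests on 1 mouse in that genotype. The replicate number is not stated to mark a pair, and the pairing correlated weakly. Genes under about 10 counts a library could not be tested at this depth.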
